A study of Mus musculus with 9 samples.

Results

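Full-length CCAT was set against a truncated form that lacks the transcriptional activation domain, gene by gene, in Neuro2A cells, a mouse neuroblastoma line. Of the 9 two-colour Agilent arrays of the study, the 6 whose control channel held untransfected cells enter the comparison: 3 arrays titled CCAT Full Length (FL) and 3 titled CCAT DTS, the truncated construct that other labels call DTA and that is called DTA here. Each value is a log2 ratio over untransfected cells, and the difference for a gene is the FL mean minus the DTA mean. FL carried the last 503 amino acids of the L-type calcium channel CaV1.2 and DTA the last 280, so that DTA lacked 223. Both were expressed from the PA1 plasmid after lipid-mediated transfection, GFP-positive cells were sorted after 24 hours, and the untransfected controls were grown and sorted likewise. The labels describe DTA as still activating transcription, only much more weakly, and they do not say whether replicates came from separate cultures, so p-values measure the spread between these arrays, which may be technical. The other 3 arrays, of another platform and normalized separately, held FL against cells that received the empty PA1 plasmid, and their values stand beside the others for description.

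CCAT is the C-terminal fragment of CaV1.2, the pore-forming subunit encoded by Cacna1c that carries voltage-gated calcium entry in neurons, heart and muscle. In neurons the fragment is found in the nucleus, and calcium entry drives it out. Published work on CCAT describes it as a transcription factor that activates Gjb5, the gene of a connexin, a protein of gap junctions. Deleting an activation domain is a common way to separate what a transcription factor does by activating genes from what expressing the protein does.

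The 6 arrays measured 16504 named genes. Pearson's r across genes was 0.84 to 0.90 between FL arrays, 0.92 to 0.95 between DTA arrays and 0.71 to 0.80 between an FL and a DTA array, and genes are not independent replicates. Between arrays of a group, genes had a median SD of 0.071 with FL and 0.041 with DTA. One text field of DTA replicate 3 names the full-length construct, against its title and source name, and this array had r of 0.92 and 0.95 with the rest of its group. Neither the amount of each construct nor the share of cells expressing it was measured, so a difference in construct amount, in the share of responding cells and in the sequence of the construct cannot be told apart. Ratios give no expression levels, so the presence of neuroblastoma markers could not be checked. The order of the ratio is not stated. Ratios are read as higher in the CCAT channel, which was assumed and not tested. The design text reports that the plasmid raises some genes. Read this way, interferon-induced antiviral genes stood at a median of 0.91 with FL and 0.56 with DTA, which cannot itself settle the order. All directions turn together if the order was the reverse.

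Promoters of genes that the results turn on are shown first, as the 250 bases before a start of the gene in RefSeq (GRCm38.p6). Some genes have several promoter entries. Where a motif is marked, the entry shown was picked for holding that motif. The top window belongs to Gjb5, chosen after its values were seen because it had the highest difference toward FL. It lies at chr4:127358165-127358414 on the minus strand, and no motif was chosen for marking in it.
Gjb5: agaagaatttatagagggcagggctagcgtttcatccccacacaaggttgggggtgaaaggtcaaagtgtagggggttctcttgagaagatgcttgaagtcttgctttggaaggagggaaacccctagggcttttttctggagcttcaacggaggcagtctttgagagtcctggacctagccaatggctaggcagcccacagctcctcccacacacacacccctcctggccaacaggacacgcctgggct
Hmgcs1 and Idi1, enzymes of the cholesterol pathway, stand for that list. Their promoters lie on the plus strand at chr13:119690101-119690350 and chr13:8885356-8885605, with CCAAT boxes, the motif bound by the factor NF-Y, in capitals on either strand (CCAAT or ATTGG). The windows of Gjb5, Bnip3, Pgk1, Hspa5 and Hspa1a also hold CCAAT or ATTGG that is left unmarked.
Hmgcs1: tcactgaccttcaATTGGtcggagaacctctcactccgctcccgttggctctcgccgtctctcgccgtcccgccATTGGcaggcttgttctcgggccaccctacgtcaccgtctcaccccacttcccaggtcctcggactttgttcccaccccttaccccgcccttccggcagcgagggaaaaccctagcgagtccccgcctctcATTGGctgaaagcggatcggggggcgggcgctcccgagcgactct
Idi1: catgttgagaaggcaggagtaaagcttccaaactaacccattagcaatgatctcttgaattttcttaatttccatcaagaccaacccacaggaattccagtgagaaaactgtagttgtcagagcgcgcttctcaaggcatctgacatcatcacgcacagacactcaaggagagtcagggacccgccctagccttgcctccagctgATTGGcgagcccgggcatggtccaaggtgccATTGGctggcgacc
Bnip3 and Pgk1 stand for the hypoxia and glycolysis genes. The Bnip3 window is chr7:138909507-138909756 on the minus strand and the Pgk1 window is chrX:106186850-106187099 on the plus strand, with ACGTG, the core of the hypoxia response element, in capitals on either strand. In Bnip3 the marked CACGTG holds the core once on each strand.
Bnip3: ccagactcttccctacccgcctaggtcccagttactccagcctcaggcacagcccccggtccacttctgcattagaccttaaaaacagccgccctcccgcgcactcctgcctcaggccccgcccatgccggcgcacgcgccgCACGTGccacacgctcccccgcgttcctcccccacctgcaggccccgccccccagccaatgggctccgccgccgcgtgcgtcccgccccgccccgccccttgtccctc
Pgk1: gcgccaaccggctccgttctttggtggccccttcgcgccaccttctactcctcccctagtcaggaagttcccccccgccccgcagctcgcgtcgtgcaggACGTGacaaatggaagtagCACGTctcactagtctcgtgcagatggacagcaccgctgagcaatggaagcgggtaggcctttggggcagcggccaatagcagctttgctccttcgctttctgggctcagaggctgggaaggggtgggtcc
Hspa5, the ER chaperone BiP, and Hspa1a, an inducible cytosolic HSP70, come last. Capitals mark the ER stress response element (CCAAT and CCACG with any 9 bases between them, which contains a CCAAT box) in Hspa5, at chr2:34771840-34772089 on the plus strand, and the heat shock element GAANNTTC in Hspa1a, at chr17:34972157-34972406 on the minus strand.
Hspa5: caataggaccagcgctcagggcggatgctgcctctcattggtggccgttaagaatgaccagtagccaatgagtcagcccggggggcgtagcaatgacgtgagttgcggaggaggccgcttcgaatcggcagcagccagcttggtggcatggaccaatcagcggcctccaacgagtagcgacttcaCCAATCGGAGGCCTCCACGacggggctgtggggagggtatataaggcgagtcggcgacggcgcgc
Hspa1a: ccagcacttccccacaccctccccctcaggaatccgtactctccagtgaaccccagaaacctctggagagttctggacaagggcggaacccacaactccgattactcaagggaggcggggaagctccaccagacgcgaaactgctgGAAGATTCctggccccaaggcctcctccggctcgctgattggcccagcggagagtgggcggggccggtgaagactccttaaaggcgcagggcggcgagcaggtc

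The differences between FL and DTA were many and mostly small. In the limma fit 5646 of 16504 genes (34.2%) had an adjusted p under 0.05, which is what "called" means here, with 2996 higher with FL (18.2%) and 2650 lower (16.1%). At an unadjusted p under 0.05 there were 7423. The median size of a called difference was 0.244 on the log2 scale and 94.0% of called genes differed by less than 1.5-fold. FL and DTA values did not overlap for 50.0% of all genes, so a lack of overlap alone sets no gene apart. At least 2-fold, 16 genes were higher with FL (0.0969%) and 53 were lower (0.321%). Just past that limit lay a gene at 1.00 and just below it one at 0.98 on the log2 scale. Without DTA replicate 1, 2 or 3 the number called was 3731, 3595 or 3415. Without DTA replicate 3, whose text fields disagree, 11 genes were at least 2-fold higher and 50 lower, and Gjb5 differed by 2.853. At least 2-fold higher were 10 genes without DTA replicate 1 and 26 without FL replicate 1. Each construct on its own moved about as many genes against untransfected cells, with 34.7% higher and 35.1% lower for FL and 35.7% higher and 36.1% lower for DTA.

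**Figure D1:**
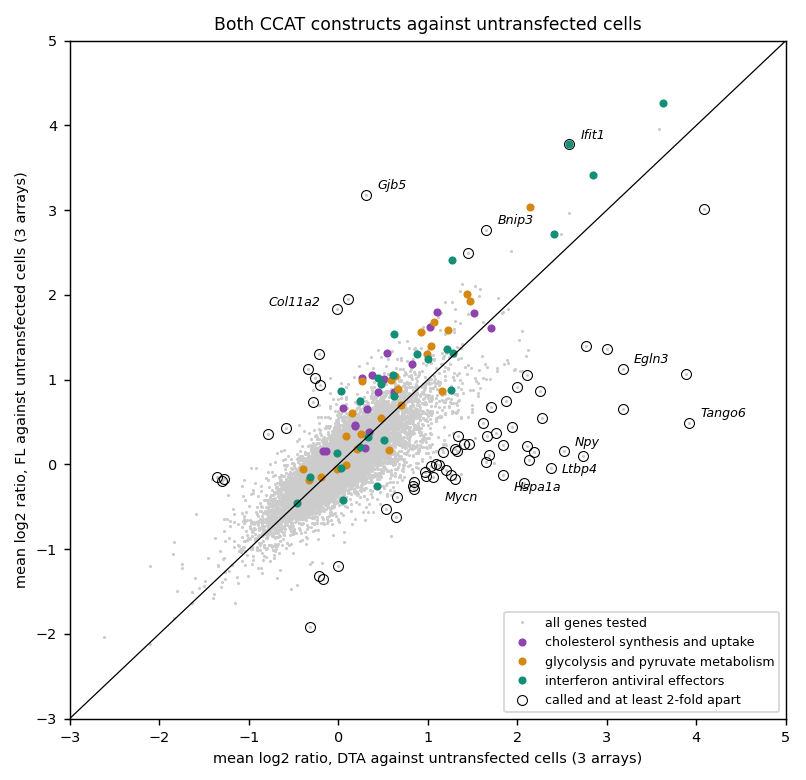
Mean log2 ratio against untransfected cells for DTA (x axis) and FL (y axis), with 3 arrays each; each dot is a gene, coloured dots are 3 gene lists, open circles are the called genes at least 2-fold apart, and the line marks equal ratios. Gjb5 lies far above the line and Tango6, Ltbp4 and Npy lie far below it, near 0 for FL.

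Cacna1c itself, whose coding sequence both constructs come from, was slightly raised in all groups. It stood at 0.14, 0.21 and 0.08 on the FL arrays and at 0.26, 0.26 and 0.29 on the DTA arrays. All DTA values lay above all FL values, but the difference of -0.12 (SE 0.04) was not called (adjusted p = 0.0662). Whether the array's single Cacna1c feature lies in the stretch that the plasmids carry was not tested.

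Gjb5 had the highest difference toward FL. Its log2 ratio was 3.28, 3.74 and 2.52 on the FL arrays and 0.29, 0.37 and 0.28 on the DTA arrays. Every FL array was far above every DTA array, and the DTA arrays were close to one another. The difference was 2.87 (95% interval 2.13 to 3.60, SE 0.30, adjusted p = 0.00176), or 7.30-fold. Against empty vector FL gave 3.87, 3.94 and 3.72, all above 3.

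The other connexins gave small differences or spread too widely. Of 15 measured genes of connexins and pannexins, which form gap junction and related channels, 3 were higher with FL and 1 was lower. These are shares of 20% and 6.7%, beside 18.2% and 16.1% of all genes, with a median difference of 0.11. Gjc1 (connexin 45) was higher by 0.31 and Gja5 (connexin 40) lower by 0.27 on the log2 scale. The third, Gjd2 (connexin 36), was higher by 0.32, and its call was lost when DTA replicate 1, 2 or 3 or FL replicate 1 or 3 was left out (adjusted p = 0.0777 to 0.133). Gja1 (connexin 43) varied too much to be called, at 0.05, 0.61 and 0.90 with FL and 0.12, 0.32 and -0.53 with DTA.

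Col11a2, a chain of the fibril-forming collagen XI, stood at 1.55, 2.02 and 1.92 with FL and between -0.04 and 0.01 with DTA. The groups were wide apart, with a difference of 1.84 (SE 0.12, adjusted p = 0.00072), or 3.59-fold. Against empty vector, however, FL gave -0.27, -0.26 and -0.26, below 0 on every array. Ctnnal1, an alpha-catenin-like protein, stood at 0.82, 1.50 and 1.61 with FL and at -0.21, -0.28 and -0.16 with DTA (difference 1.53, SE 0.21), and at 0.45, 0.44 and 0.40 against empty vector. It was above 0 on all 6 arrays that held FL.

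Mpv17, an inner mitochondrial membrane protein, stood at 1.57, 2.41 and 1.87 with FL and at 0.12, 0.09 and 0.12 with DTA. The groups did not overlap (difference 1.84, SE 0.21, adjusted p = 0.00212). Against empty vector its arrays disagreed, at 3.29, -1.66 and 2.86, and it was not called there. Ppef2, a calcium-binding protein phosphatase of sensory cells, stood at 1.13, 1.24 and 1.00 with FL and at -0.80, -0.21 and 0.00 with DTA. The latter 3 values were spread out, and the difference was 1.46 (SE 0.21, adjusted p = 0.0044). Cnmd, which codes for chondromodulin of cartilage, differed by 1.21 mainly through low values with DTA (-1.07, -1.48 and -1.53, against -0.46, 0.00 and 0.00 with FL, where 2 of the arrays had a ratio of exactly 0).

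Some of these calls lay close to the threshold. Among the 12 highest genes, H1f6 (a testis linker histone) and Cldn19 (a tight junction claudin) lost the call when DTA replicate 1, 2 or 3 was left out, with adjusted p of 0.0571 to 0.0656 and 0.0919 to 0.0927. Their differences moved little in these fits, from 1.28 to between 1.23 and 1.32 for H1f6 and from 1.13 to between 1.13 and 1.14 for Cldn19. Ctsj (a placental cathepsin) lost it without DTA replicate 1 (adjusted p = 0.0511). Scyl2, a protein of clathrin-coated vesicles, lost it whenever 1 array other than FL replicate 1 was left out (adjusted p = 0.0955 to 0.142). The other 8 of the 12 kept the call whichever array was left out.

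As a set, the 16 genes at least 2-fold higher with FL had a median log2 ratio of 1.07 with FL and -0.24 with DTA against untransfected cells. On the empty vector arrays 7 of them were called higher, 3 lower and 6 in neither direction, with a median of 0.09, and 13 of the 16 were within 1.5-fold. The background there was 30.6% higher and 32.8% lower. All 16 rest on 1 array feature each, 4 had a ratio of exactly 0 on at least 1 array, and no flag for signal over background was used.

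**Figure D2:**
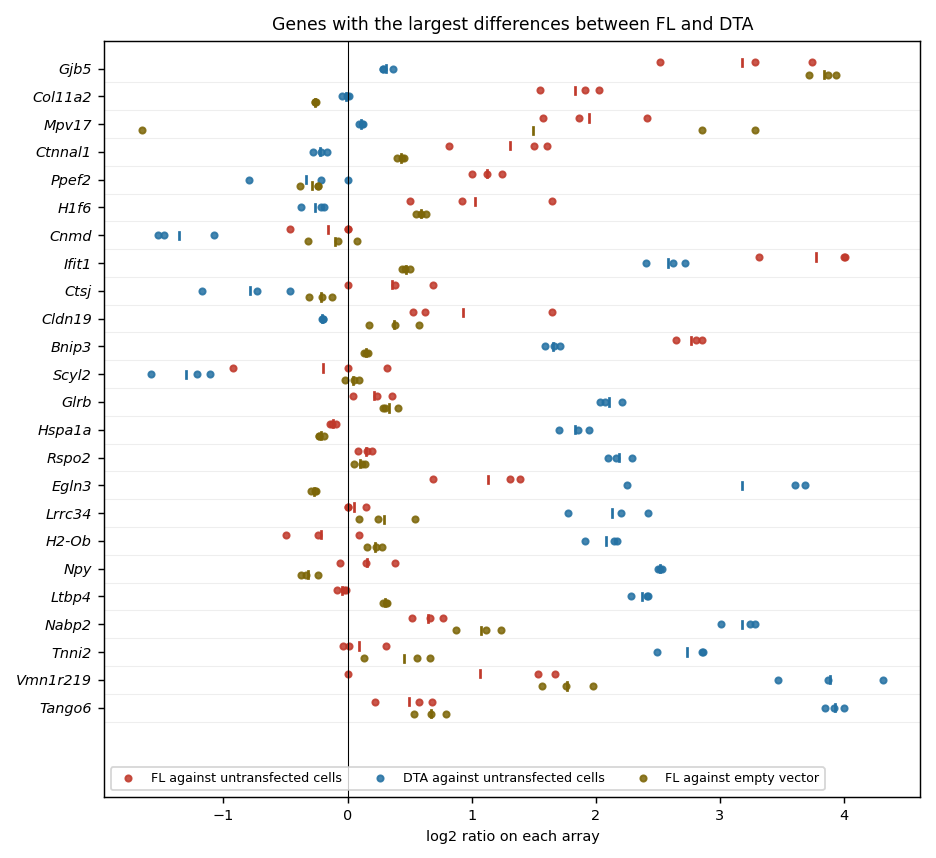
Log2 ratio on every array (x axis) for the 12 genes with the highest and the 12 with the lowest difference FL minus DTA that were called and did not overlap; dots are arrays, short bars are means, red is FL and blue DTA, both over untransfected cells, and brown is FL over empty vector. For the lower 12 genes the DTA values stand apart to the right while most FL values, with both controls, lie near 0.

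More genes were at least 2-fold apart toward DTA, and for most of them the DTA arrays were the ones away from 0. The 53 genes had a median of 1.65 with DTA and 0.14 with FL, 37 were within 1.5-fold of untransfected cells with FL, and 41 were at least 2-fold up with DTA. Tango6, a protein of transport through the Golgi, stood at 0.22, 0.57 and 0.68 with FL and at 3.92, 4.0 and 3.85 with DTA. The groups were wide apart, with a difference of -3.43 (95% interval -3.74 to -3.13, adjusted p = 0.000327), or 10.8-fold toward DTA.

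Secreted signals and their binding proteins were among them. Npy, the neuropeptide Y precursor made by sympathetic neurons, stood at -0.06, 0.15 and 0.38 with FL and at 2.50, 2.52 and 2.53 with DTA. The DTA arrays agreed closely, and the difference was -2.36 (SE 0.11, adjusted p = 0.000452), or 5.14-fold. Against empty vector FL gave -0.23, -0.34 and -0.37. Ltbp4, which binds latent TGF-beta and elastic fibres, stood at -0.08, -0.03 and -0.01 with FL and at 2.28, 2.42 and 2.41 with DTA. FL arrays were at the level of untransfected cells, and the difference of -2.42 (SE 0.05, adjusted p = 0.000107) was 5.33-fold.

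Rspo2, an R-spondin that strengthens Wnt signalling by sparing its receptors, stood at 0.20, 0.15 and 0.09 with FL and at 2.10, 2.29 and 2.16 with DTA. It had the same form, with a difference of -2.04 (SE 0.06, adjusted p = 0.00023) and little spread in either group. Hspa1a, the stress-induced HSP70 whose promoter is shown above, stood at -0.09, -0.14 and -0.13 with FL and at 1.94, 1.86 and 1.71 with DTA. It was 3.88-fold higher with DTA (difference -1.96, SE 0.06, adjusted p = 0.000299). Its near-identical copy Hspa1b can share signal with it on an array.

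Mycn, the MYC family transcription factor that is amplified in many human neuroblastomas, went opposite ways against untransfected cells. It stood at -0.11, -0.19 and -0.21 with FL and at 1.30, 1.31 and 1.30 with DTA. All FL values were below 0 and all DTA values above 1, a difference of -1.48 (SE 0.04, adjusted p = 0.000185), or 2.78-fold. Against empty vector FL gave -0.08, 0.05 and 0.04 and was not called.

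Glrb, the beta subunit of the inhibitory glycine receptor, stood at 0.24, 0.35 and 0.04 with FL and at 2.22, 2.03 and 2.08 with DTA (3.72-fold higher with DTA, adjusted p = 0.000461). Nabp2, a single-strand DNA-binding protein of DNA repair, stood at 0.66, 0.77 and 0.52 with FL and at 3.01, 3.25 and 3.28 with DTA (difference -2.53, SE 0.10). In both genes all 3 DTA arrays were well above all FL arrays. Tnni2, a troponin of fast skeletal muscle, differed by -2.64, Lrrc34 by -2.08 and H2-Ob, an MHC class II chaperone subunit, by -2.29. Vmn1r219, a vomeronasal receptor, differed by -2.82 with a wide spread, since FL replicate 3 had a ratio of 0.00 and the others had 1.67 and 1.54.

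On the empty vector arrays, 51 of the 53 genes were measured and their median was -0.02. Of these 17 were higher, 15 lower and 19 not called, beside 30.6% higher and 32.8% lower over all genes. Within 1.5-fold were 47. Of the 53 genes 52 rest on a single feature and 7 had a ratio of exactly 0 on at least 1 array.

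**Figure D3:**
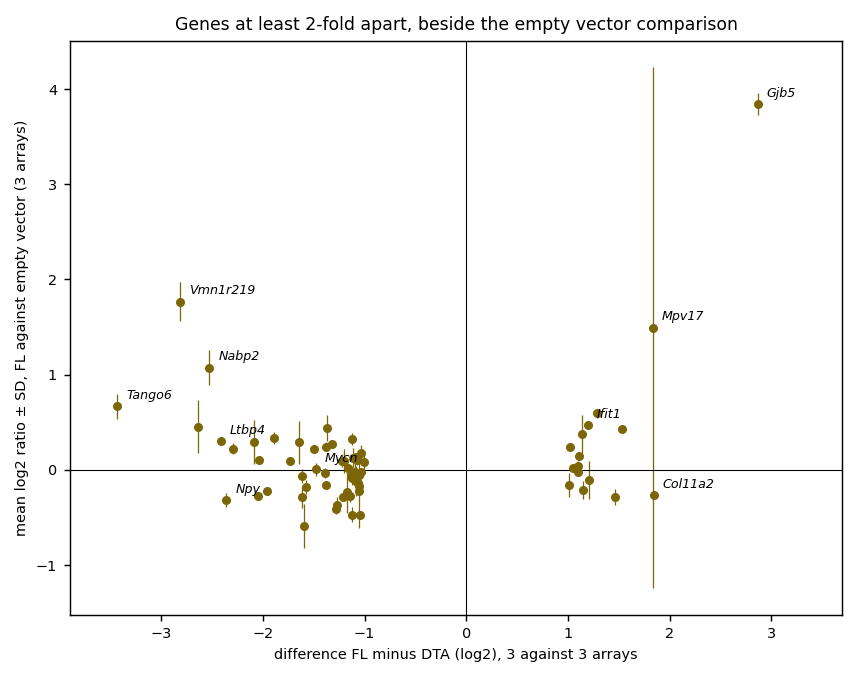
Genes called and at least 2-fold apart, with the difference FL minus DTA on the x axis (log2, 3 against 3 arrays) and the mean log2 ratio of FL against empty vector on the y axis (bars are SD of 3 arrays on another platform, normalized separately). Most genes lie within 1.5-fold of 0 on the y axis, Gjb5 is high on both axes, and Mpv17 has a wide bar.

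Genes of cholesterol synthesis and uptake were higher with FL. Of 19 measured genes 14 were called higher and 0 lower with limma (16 and 0 at an unadjusted p under 0.05), against 18.2% and 16.1% of all genes, and the median difference was 0.33 against 0.0026 over all genes. Both constructs had positive medians against untransfected cells, 0.86 for FL and 0.38 for DTA. Against empty vector the median of the same genes with FL was 0.08, with 10 higher and 5 lower. The shares over all genes there were 30.6% and 32.8%. Without DTA replicate 3, 14 cholesterol genes, 13 of the glycolysis genes, 8 of the other HIF targets, 14 of the ER genes and 7 of the antiviral genes were called higher with FL.

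Hmgcs1, the HMG-CoA synthase at the entry of the pathway, stood at 1.75, 1.76 and 1.87 with FL and at 1.05, 1.13 and 1.11 with DTA. Idi1, the isopentenyl diphosphate isomerase, stood at 1.24, 1.30 and 1.40 with FL and at 0.54, 0.58 and 0.52 with DTA. Neither gene's groups overlapped, and the differences were 0.69 (SE 0.04, adjusted p = 0.000639) and 0.77 (SE 0.05, adjusted p = 0.000609). Later enzymes went the same way, with Dhcr7, the last step to cholesterol, at 0.76, Msmo1 at 0.68, Sc5d at 0.61 and Fdft1, squalene synthase, at 0.49. Insig1, a sterol-regulated brake on the pathway, stood at 1.65, 1.61 and 1.60 with FL and at 1.01, 1.05 and 1.02 with DTA, a difference of 0.59 (SE 0.03). Sqle, squalene epoxidase, was higher by 0.36. Not called were Cyp51 (0.33), Stard4 (0.28), Mvd (0.04), Mvk (-0.10) and Hsd17b7 (-0.10). Against empty vector Hmgcs1 gave 0.23, 0.19 and 0.19 and was called higher. Idi1 gave -0.02, -0.01 and -0.09 there and was not called.

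A CCAAT box was found on either strand of the 250 bases in all 15 of the cholesterol genes with a RefSeq promoter, against 39.6% of 13223 genes. The sterol element TCACNCCAC was found in 1 of the 15, against 1.25% of all. These are matches of letters and say nothing of binding.

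Glucose handling moved in the same direction. Of 25 measured genes of glycolysis and pyruvate metabolism, 14 were higher with FL (56%) and 2 lower (8%). Over all genes 18.2% were higher and 16.1% lower. The median difference of the list was 0.31. The medians against untransfected cells were 0.86 for FL and 0.59 for DTA. Against empty vector the median was -0.02, with 6 higher and 11 lower, beside 30.6% and 32.8% of all genes there. Hk2, the hexokinase that traps glucose in the cell, stood at 0.94, 0.93 and 1.08 with FL and at 0.24, 0.28 and 0.28 with DTA. Its groups were well apart, with a difference of 0.72 (SE 0.05, adjusted p = 0.000734). Slc2a1, the glucose transporter GLUT1, stood at 1.90, 2.00 and 2.15 with FL and at 1.46, 1.43 and 1.42 with DTA, a difference of 0.58 (SE 0.07).

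Along the pathway Eno2 (neuronal enolase) was higher by 0.64, Slc16a3 (the lactate exporter MCT4) by 0.60, Tpi1 by 0.45, and Pgk1 and Ldha (lactate dehydrogenase A) by 0.36 each. Pdk1, a kinase that inhibits pyruvate dehydrogenase, was higher by 0.90, but with a wide spread (3.45, 2.88 and 2.79 with FL, 1.70, 2.37 and 2.33 with DTA). Its call was lost without DTA replicate 1, 2 or 3 or FL replicate 1 or 2 (adjusted p = 0.0649 to 0.0854). Of the 2 lower genes, Pfkm (muscle phosphofructokinase) differed by -0.40. The other, Aldoa (-0.30), lost the call whenever 1 array other than FL replicate 1 was left out (adjusted p = 0.110 to 0.128).

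Other targets of HIF, the oxygen-sensitive transcription factor, divided. Of 24 measured genes 10 were higher with FL (42%) and 2 lower (8.3%), beside 18.2% and 16.1% of all genes. The median difference was 0.26, and the medians were 0.63 for FL, 0.43 for DTA and 0.11 against empty vector. Bnip3, a mitophagy receptor, stood at 2.64, 2.81 and 2.86 with FL and at 1.59, 1.72 and 1.66 with DTA. Both constructs were far above untransfected cells and FL was the higher, by 1.11 (SE 0.07, adjusted p = 0.000574) or 2.16-fold. Against empty vector FL gave 0.13, 0.16 and 0.15.

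Egln3, the prolyl hydroxylase PHD3 that marks HIF for destruction and is itself a HIF target, went the other way. It stood at 1.31, 1.39 and 0.69 with FL and at 2.25, 3.69 and 3.60 with DTA, and at -0.25, -0.30 and -0.26 against empty vector. The groups did not overlap, but both were spread out, and the difference was -2.05 (SE 0.43, adjusted p = 0.0157). It was -1.80 and not called without DTA replicate 2 (adjusted p = 0.0529) and -1.84 and not called without DTA replicate 3 (adjusted p = 0.0564). The other lower gene was Egln2 (-0.23), which lost the call whichever of the 6 arrays was left out (adjusted p = 0.0604 to 0.120). Egln1 differed by 0.00 and was not called.

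Ero1a, the oxidase that drives disulfide formation in the ER, was higher by 0.77 (1.43, 1.44 and 1.46 with FL, 0.68, 0.70 and 0.64 with DTA). Its replicates were tight and did not overlap. The collagen-modifying enzymes Plod2 and P4ha1 were higher by 0.59 and 0.48, Ndrg1 by 0.59, and the mTORC1 inhibitor Ddit4 by 0.42. The factors themselves, Hif1a and Epas1, were higher by 0.25 and 0.30. Vegfa, the angiogenic growth factor, was not called (0.12, SE 0.08). The core ACGTG was found in 14 of 24 promoters of the glycolysis list and 12 of 20 of the other HIF targets, against 22% of all genes.

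ER chaperones and genes of the unfolded protein response, which folds or clears proteins in the secretory pathway, were mostly higher with FL. Of 28 measured, 16 were higher (57%) and 2 lower (7.1%), beside 18.2% and 16.1% of all genes. The median difference was 0.19, and the medians were 0.41 for FL, 0.23 for DTA and 0.08 against empty vector. Hspa5 stood at 1.37, 1.32 and 1.43 with FL and at 1.06, 1.07 and 1.03 with DTA. Its groups did not overlap (difference 0.32, SE 0.04, adjusted p = 0.00238), and against empty vector FL gave 0.02, 0.01 and 0.01. Pdia4, a disulfide isomerase, was higher by 0.52, the co-chaperone Dnajb9 by 0.46, the stress sensor Atf6 by 0.38, the secreted factor Manf by 0.31 and the transcription factor Xbp1 by 0.26. Derl2 and Dnajc3 were lower, by 0.32 and 0.24. The ER stress response element of the Hspa5 promoter was found in 9 of 24 promoters of the list, against 0.151% of all genes, and a CCAAT box in 20 of the 24.

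**Figure D4:**
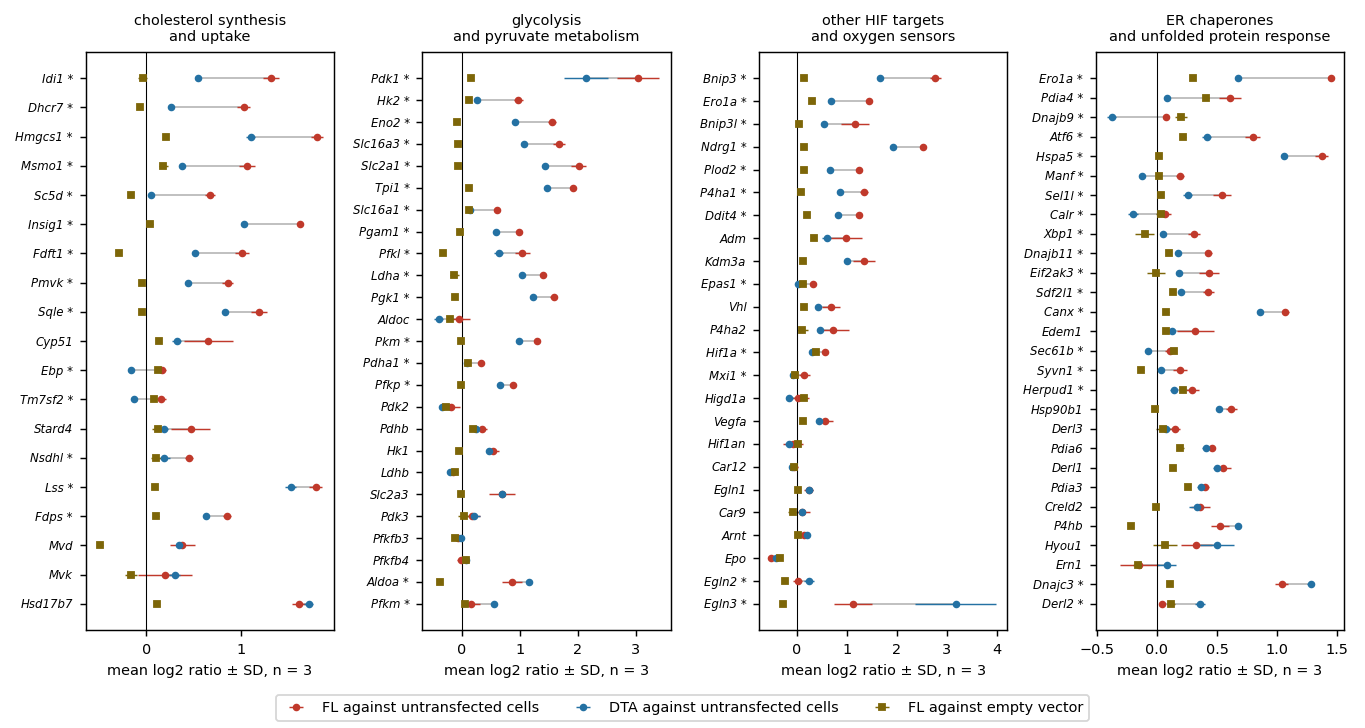
Mean log2 ratio ± SD (n = 3 arrays) of every measured gene of 4 lists, with FL in red and DTA in blue, over untransfected cells, and the empty vector comparison as brown squares; an asterisk marks a called difference FL minus DTA. In the cholesterol panel the red points lie to the right of the blue ones for 17 of 19 genes, and the brown squares lie near 0.

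With the order of the ratio assumed above, the medians of interferon-induced antiviral genes given there lay above untransfected cells with both constructs. Of 26 measured effectors 9 were higher with FL (35%) and 2 lower (7.7%), beside 18.2% and 16.1% of all genes. Their median difference was 0.22. Against empty vector their median was 0.15, with 14 higher and 3 lower, beside 30.6% and 32.8% of all genes there. Oas3, an oligoadenylate synthetase, was below untransfected cells with both, at -0.44, -0.45 and -0.46 with FL and at -0.44, -0.47 and -0.48 with DTA. Ifit1, which binds foreign RNA, stood at 3.32, 4.01 and 4.0 with FL and at 2.40, 2.62 and 2.72 with DTA. Both were far above untransfected cells, and FL was the higher by 1.19 (SE 0.21, adjusted p = 0.00835). Against empty vector FL gave 0.51, 0.46 and 0.44. Isg15, a ubiquitin-like protein, stood at 4.19, 4.34 and 4.28 with FL and at 3.71, 3.63 and 3.56 with DTA, a difference of 0.64 (SE 0.06).

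Mx2, a dynamin-like GTPase, was higher by 0.56, Ifit2 by 0.58 and Eif2ak2, the kinase PKR that senses double-stranded RNA, by 0.50. Ifit3 (0.84) and Xaf1 (0.46) lost the call when any 1 DTA array was left out (adjusted p = 0.0584 to 0.0744 for Ifit3 and 0.0573 to 0.0628 for Xaf1, which also lost it without FL replicate 2). Herc6 was lower by 0.47, and Ifitm3 by 0.39 with a call lost whenever 1 array other than FL replicate 1 was left out (adjusted p = 0.0608 to 0.102). Usp18, which removes ISG15 from proteins, stood at 1.68, 2.25 and 3.32 with FL and at 1.64, 1.17 and 1.02 with DTA. Its FL values were spread out, and the difference of 1.14 (SE 0.43) was not called (adjusted p = 0.0917).

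Of 24 nucleic acid sensors and interferon transcription factors 4 were higher (17%) and 2 lower (8.3%), beside 18.2% and 16.1% of all genes. Mavs, the mitochondrial adaptor of RNA sensing, was lower with FL (0.29, 0.20 and 0.16, against 0.98, 1.05 and 1.04 with DTA, difference -0.81, SE 0.04). Irf2, a transcription factor, was higher by 0.40. Ccl5, a chemokine induced by interferon and NF-kappaB, was higher by 1.05 (2.53, 2.00 and 2.95 against 1.42, 1.35 and 1.56), and its call was lost without DTA replicate 1, 2 or 3 or FL replicate 1 (adjusted p = 0.0532 to 0.0679). The interferon-stimulated element core, TTTC repeated after any 2 bases, was found in 7 of 21 promoters of the antiviral list, against 3.37% of all.

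The shares of ion channel and receptor genes called lower with FL were near or below the 16.1% of all genes, and of those called higher below the 18.2%. Of 24 measured calcium channel subunits 0 were higher and 4 lower with limma (0 and 8 at an unadjusted p under 0.05), with a median of -0.11. The 4 were the auxiliary subunits Cacng8 (-0.32), Cacng2 (-0.26) and Cacng7 (-0.23) and the pore subunit Cacna1d of CaV1.3 (-0.27). Of 34 potassium channel genes 0 were higher and 4 lower (4 and 6 unadjusted), among them Kcnj10, an inward rectifier (-0.36), and Kcna4 (-0.32).

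Among 30 glutamate and GABA receptor subunits 4 were higher and 5 lower. Grin2d, an NMDA receptor subunit, stood at -1.32, -1.45 and -1.49 with FL and at -0.46, -0.42 and -0.51 with DTA. Both constructs lay below untransfected cells and FL the lower, by -0.96 (SE 0.06, adjusted p = 0.000556). Against empty vector FL gave -0.99, -1.0 and -1.0. Gabrg1, a GABA-A receptor subunit averaged over 10 features, was lower with FL by 0.68.

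Genes of neuroblastoma and sympathetic neuron identity gave 2 higher (9.5%) and 5 lower (24%) of 21, beside 18.2% and 16.1% of all genes. Their median was -0.03. Isl1, a LIM homeodomain factor of the lineage, was lower with FL (0.22, -0.02 and 0.06 against 0.63, 0.61 and 0.66, difference -0.54), as was the dopamine transporter Slc6a3 (-0.76) and the receptor kinase Alk (-0.36). Th, tyrosine hydroxylase, was not called (0.12, SE 0.06). Of 33 genes of the neuronal cytoskeleton and synaptic vesicles 9 were higher (27%) and 7 lower (21%). Among them Mapt, which codes for tau, was higher by 0.31. Of the 31 neuropeptide precursors 3 were higher (9.7%) and 6 lower (19%), with a median of -0.04. After Npy the called differences were small, with Nppc at -0.34 and Avp at -0.32. Pdyn, which codes for prodynorphin, stood at -1.83, -1.01 and -0.73 with FL and at -2.08, -2.01 and -2.22 with DTA. It was low with both constructs, and the difference of 0.91 (95% interval 0.22 to 1.60) was not called (adjusted p = 0.0526).

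Among axon guidance genes 3 of 50 were higher (6%) and 7 lower (14%), beside 18.2% and 16.1% of all genes. Nrp1, a receptor for semaphorins and VEGF, stood at 1.02, 1.01 and 0.85 with FL and at 1.56, 1.58 and 1.55 with DTA, a difference of -0.60. Rgmb, a co-receptor of BMP signalling, went the other way by 0.73, through low values with DTA (-0.55, -0.81 and -0.76 against 0.17, -0.03 and -0.07 with FL). Both genes had groups that did not overlap.

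Wnt and TGF-beta genes were called lower with FL at shares near the 16.1% of all genes. They were called higher at 2.7% and 2.8%, below the 18.2% of all genes. Of 37 Wnt ligands, R-spondins and receptors 1 was higher with FL and 5 lower, with a median of -0.03. Besides Rspo2, its receptor Lgr6 was lower by 0.53 and the ligand Wnt2 by 0.28. Of 36 genes of the TGF-beta family 1 was higher and 7 lower, with a median of -0.05. Tgfb1, the founding ligand, stood at -0.48, -0.58 and -0.66 with FL and at -0.01, -0.04 and -0.05 with DTA, so that here the FL arrays were the ones away from 0 (difference -0.54, SE 0.05). Tgfb3 was lower by 0.37. Collagens and cartilage genes gave 5 higher (15%) and 7 lower (21%) of 34. Muscle contractile genes gave 2 higher (5.7%) and 5 lower (14%) of 35, among them Actc1 (-0.46) and the calcium release channel Ryr1 (-0.41).

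Growth and stress regulators were called in both directions. Of 32 immediate early genes, which respond within minutes to calcium or growth factors, 7 were higher with FL and 10 lower. These are shares of 22% and 31%, beside 18.2% and 16.1% of all genes. Bdnf, the neurotrophin induced by calcium entry, stood at 0.15, 0.08 and 0.29 with FL and at 0.97, 0.88 and 0.82 with DTA (difference -0.72, SE 0.07). Maff was lower by 0.61 and Fos by 0.34, while Ier3 was higher by 0.65 and Egr1 by 0.39. These factors of one class stood on both sides, as did genes over the whole array.

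Of 26 genes of the MYC network and its targets 6 were higher (23%) and 9 lower (35%), beside 18.2% and 16.1% of all genes. Beside Mycn, Pa2g4, a growth-linked RNA-binding protein, stood at 1.03, 1.07 and 1.07 with FL and at 2.08, 2.14 and 2.12 with DTA, a difference of -1.06 (SE 0.03). Myc itself was higher with FL by 0.26, its partner Max by 0.40 and the cap-binding protein Eif4e by 0.41. Of 21 heat shock chaperones 4 were higher and 4 lower (19% each). After Hspa1a the largest called difference was that of its co-chaperone Hsph1 (0.31, 0.26 and 0.39 with FL, 0.95, 0.95 and 0.96 with DTA, difference -0.63). A heat shock element was found in 6 of 17 promoters of that list, against 6.68% of all.

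Of 43 cytosolic ribosomal protein genes measured, 29 were lower with FL (67%) and 9 higher (21%), beside 16.1% and 18.2% of all genes. Their median difference was -0.23. However, on each array many features shared 1 value, which was -0.21, -0.19 and -0.17 on the FL arrays, 0.26, 0.25 and 0.36 on the DTA arrays and -0.60 to -0.62 on the empty vector arrays. A total of 42 genes had a feature at the shared value on at least 2 arrays of a group, and 19 of them are among these 43. Rps23 is one of them, with a difference of -0.48. The 24 genes off the shared value gave 9 higher and 10 lower, with a median of -0.06. Rps19 (0.47) and Rps15 (0.40) were the highest of them.

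**Figure D5:**
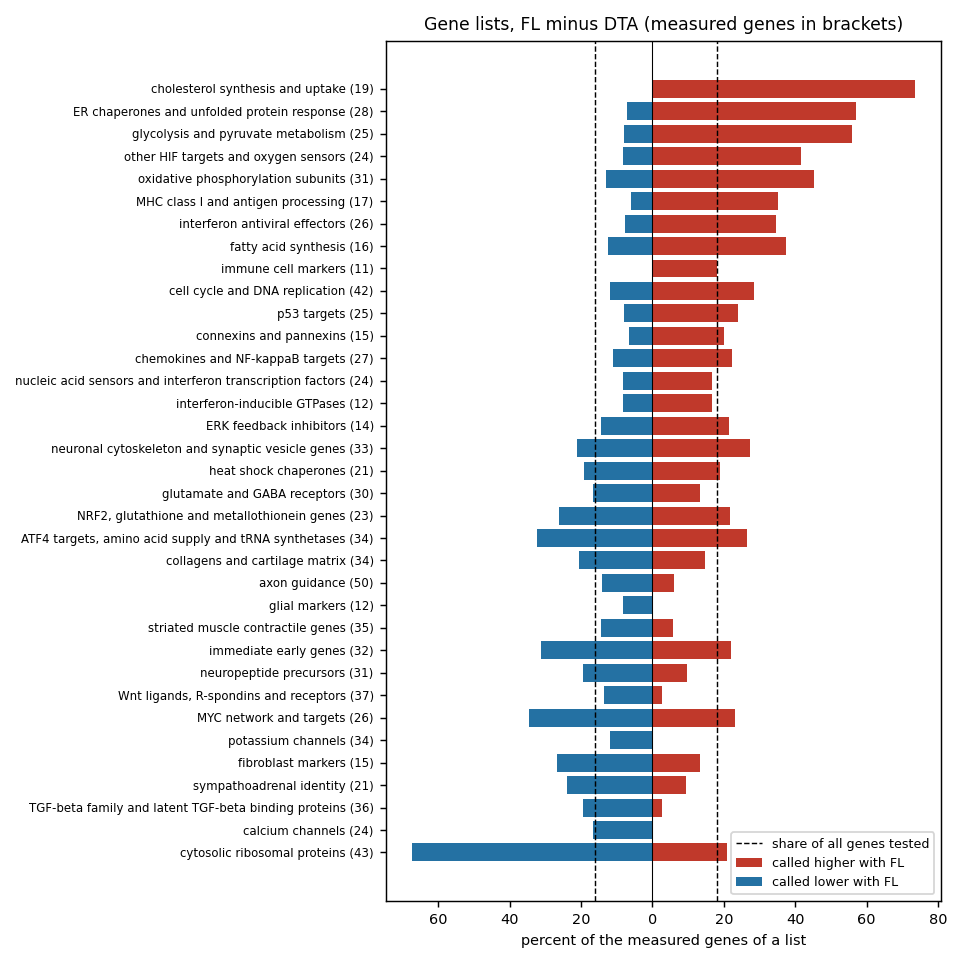
Percent of the measured genes of each list called higher with FL (red, to the right) and lower with FL (blue, to the left), with the number measured in brackets; dashed lines mark the shares over all genes tested, 18.2% and 16.1%. Cholesterol synthesis has the longest red bar and ribosomal proteins the longest blue one, of which 19 of 43 genes lie on a shared array value.

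The empty vector arrays also gave a set of genes chosen without the DTA arrays. FL changed 15 genes at least 2-fold up (0.0786%) and 35 at least 2-fold down (0.183%) against the plasmid alone. Of the 15 higher genes 7 were measured on the 6 arrays. In FL minus DTA 1 of them was higher (14%), Gjb5, and 2 were lower (29%), Nabp2 and Vmn1r219. Over all genes 18.2% were higher and 16.1% lower. Of the 35 lower genes 20 were measured, with 0 higher and 4 lower with limma (0 and 5 unadjusted). The share lower was 20%, near the 16.1% of all genes. The 4 were Tmprss11d, Slitrk1, Cldn7 and Tff1, of which Tff1 lost its call whichever DTA array was left out (adjusted p = 0.0673 to 0.0839). The medians of the 20 genes against untransfected cells were -0.30 with FL and -0.24 with DTA.

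Artn, the neurotrophic ligand artemin, stood at -1.27, -1.21 and -1.12 against empty vector. Against untransfected cells it stood at -1.51, -1.43 and -1.65 with FL and at -1.34, -1.34 and -1.48 with DTA. It was low with both constructs, and the difference of -0.15 (95% interval -0.32 to 0.03) was not called. Amh, a hormone of the TGF-beta family, was likewise low with both (-1.06, -1.06 and -1.29 with FL, -0.92, -1.0 and -1.31 with DTA, interval of the difference -0.36 to 0.23). Tmprss11d, a membrane serine protease, differed, at -0.27, -0.85 and -0.81 with FL and 0.20, 0.17 and 0.18 with DTA (difference -0.83, SE 0.16).

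Markers of other cells had small median differences between FL and DTA. Of 12 glial markers 0 were higher and 1 lower with limma (0 and 2 unadjusted). Of 15 fibroblast markers 2 were higher (13%) and 4 lower (27%), beside 18.2% and 16.1% of all genes. Of 11 immune cell markers 2 were higher (18%) and 0 lower (3 and 0 unadjusted). The medians were -0.06, 0.00 and 0.04. The fibroblast markers Lum and Col1a1 and the immune markers Lyz2 and Adgre1 each lost the call when certain single arrays were left out. Their part in the results was not tested.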

How the data were processed

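The deposited values were log10 ratios of the 2 channels of an array, which the authors computed in Rosetta Luminator (named in the design text), with CCAT RNA in Cy3 and control RNA in Cy5 on every array per the labels. How background and dyes were corrected and which channel was the numerator is not given in the sources used here. A base of 10 was inferred from the values of the 6 arrays, capped at exactly -2 with FL, and was assumed for the 3 empty vector arrays. A dye effect cancels in FL minus DTA only if it was equal in both sets, which was not tested. Array medians lay between -0.0046 and -0.0017 (log10), and 344 to 384 features per array had a ratio of exactly 0. No depth exists for arrays, and precision rests on how many were run.

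Ratios were converted to log2. Of 22393 features on the 6 arrays 18218 had 1 gene symbol in the platform annotation, 16 had several and 4159 had none, and the last 2 kinds stayed out of the gene tests. On the 3 empty vector arrays 32042 of 43790 features had 1 symbol, 47 several and 11701 none. Symbols were checked against the RefSeq table of GRCm38.p6. The 1193 of 16504 genes with several features took their mean.

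The test was that of limma 3.58.1 (R 4.3.3; lmFit, then eBayes; two-sided, Benjamini-Hochberg over all genes, threshold 0.05), FL minus DTA in 1 fit with 4 residual degrees of freedom and FL against empty vector in a fit of its own with 2, over 19087 genes. The steps were tested on simulated data. The 35 gene lists, the genes of the comparison and the alternatives were chosen with earlier results of these data known, and lists are described by counts and medians with no test. Named genes were the 12 highest and 12 lowest called differences whose groups did not overlap, without clone and gene model symbols, Gjb5, Cacna1c and Mycn, members of the lists, and the 6 highest and 6 lowest genes against empty vector. The main fit did not pair arrays by replicate number. Motifs were searched on both strands of RefSeq promoters, matched for 13223 of 16504 genes by symbol. These genes had 16501 promoter entries, and a match in any entry of a gene counted. Alternatives were array centring, quantile normalization, the median over features, single features, zeros as missing values, dropping genes that never passed 0.2 in absolute log2 ratio, robust eBayes, no moderation, the replicate number as a block, each array left out, limma's treat at 1.5-fold and genes on a shared value left out. A shared value was located where a window of 0.00025 (log10) held the largest excess of features over a surrounding window of 0.005. Figures were drawn with matplotlib 3.10.9.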

Additional observations from a re-analysis of the deposited data

Results flagged for a closer look

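Among genes with a called difference of at least 2-fold, 7 also differed from untransfected cells at an adjusted p under 0.05 with each construct, in opposite directions, and the difference itself was tested by limma. Mycn, the MYC family factor, differed by -1.477. Prss35, a secreted protease-like protein, differed by -1.269, with -0.53, -0.67 and -0.66 for FL and 0.73, 0.64 and 0.57 for DTA. Irs1, the adaptor of the insulin receptor, differed by -1.139, with -0.25, -0.39 and -0.24 for FL and 0.88, 0.85 and 0.80 for DTA. Trmt10b, a tRNA methyltransferase, differed by -1.086. Adra1b, an adrenergic receptor, differed by -1.065, with -0.51, -0.53 and -0.55 for FL and 0.65, 0.45 and 0.51 for DTA. Tlx2, a homeobox factor of the neural crest, differed by -1.041. Taf15, an RNA-binding protein, went the other way by 1.017, with 0.56, 0.46 and 0.27 for FL and -0.64, -0.57 and -0.55 for DTA.

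Very low FL ratios were found among features that carry no single gene name. Of 4175 such features 462 lay under -2 (log2) on all 3 FL arrays, and 0 of the named features did. Their median was -4.841 on the FL arrays (array medians -5.155 to -3.388) and -1.675 on the DTA arrays (-1.779 to -1.058). Because they were chosen for low FL values, a lower median with FL follows in part from that choice. What these features measure was not tested.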

How the results depend on the processing

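Most called differences are small, and the count depends on the threshold and on each array. With limma's treat, which asks for more than 1.5-fold, 30 genes were called, 1 higher with FL and 29 lower, and of the genes at least 2-fold apart 1 and 25. No gene of the cholesterol, antiviral, unfolded protein, glycolysis and HIF lists was called higher and no ribosomal gene lower (0 in each), and Gjb5, at 2.87 (2.8674), was not called (adjusted p = 0.0683). The values were the same and only the test was stricter. It also weighs the spread between arrays, and the SE of Gjb5 was 0.30. Without moderation across genes 10 genes were called at least 2-fold higher, against 16. Leaving out genes on a shared value left 10 ribosomal genes lower, against 29. In FL against empty vector 12107 genes were called, 7629 with barely varying genes left out, 2 with treat and 20530 single features. At 1.5-fold in place of 2-fold, genes chosen on the empty vector arrays gave 9 higher (18%) and 6 lower (12%) of 50 higher genes. Of 245 lower genes 6 were higher (2.4%) and 56 lower (23%). Over all genes the shares were 18.2% and 16.1%.

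Leaving out each array in turn gave 3415 to 5836 called genes (1849 to 3065 higher, 1566 to 2771 lower), of which the counts without DTA replicate 1, 2 and 3 were 3731, 3595 and 3415. At least 2-fold, 10 to 26 were higher (10 without DTA replicate 1, 26 without FL replicate 1) and 50 to 57 lower. The ranges were 14 to 16 cholesterol genes, 7 to 12 antiviral, 14 to 17 unfolded protein, 13 to 14 glycolysis and 8 to 13 HIF genes higher, and 22 to 29 ribosomal genes lower. Gjb5 ranged from 2.5876 to 3.1978, and FL against empty vector gave 8400 to 9788 calls. Of the 413 called genes of the lists and of the 2-fold sets, 293 kept the call in all 6 of these fits and 120 lost it in at least 1.

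Deviations from the group mean correlated weakly between same-numbered FL and DTA arrays (r = -0.043, 0.091 and -0.003 across genes). For other pairs of arrays r lay between -0.082 and 0.069. Weak correlations cannot show whether arrays were run in pairs. With the replicate number as a block 4016 genes were called, 2087 higher and 1929 lower, with 16 and 51 at least 2-fold, and 14 cholesterol, 9 antiviral, 14 unfolded protein, 13 glycolysis and 10 HIF genes higher and 24 ribosomal genes lower, and Gjb5 kept its call (adjusted p = 0.0136). Quantile normalization gave 3008 higher and 2522 lower, and array centring 2920 and 2710. No result reversed. Whether dim features were above background could not be read from ratios.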

Other observations

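Mitochondrial genes were called more often toward FL than over all genes. Of 31 measured subunits of oxidative phosphorylation 14 were higher with FL and 4 lower, beside 18.2% and 16.1% of all genes, but the median difference was only 0.07. The succinate dehydrogenase subunits Sdhc, Sdha and Sdhb were higher by 0.46, 0.31 and 0.20, and the complex I subunits Ndufa2 and Ndufa1 by 0.32 and 0.30. Cox6a1, a subunit of cytochrome oxidase, was lower by 0.36. Of 16 genes of fatty acid synthesis 6 were higher (37.5%) and 2 lower (12.5%). Acss2, which makes acetyl-CoA from acetate, was higher by 0.54 and the desaturase Scd2 by 0.40. The 2 lower genes were Acaca (-0.27) and Acly (-0.16), and Fasn (0.10) was not called.

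Of 42 cell cycle and replication genes 12 were higher with FL (29%) and 5 lower (12%), beside 18.2% and 16.1% of all genes. Their median was 0.05. The mitotic kinase Aurkb was higher by 0.32 and the ribonucleotide reductase subunit Rrm2 by 0.27, and Top2a was lower by 0.27. Of 25 targets of p53 6 were higher (24%) and 2 lower (8%), with the growth arrest genes Gadd45a at 0.57 and Cdkn1a at 0.37. Antioxidant genes were called on both sides, 5 higher (22%) and 6 lower (26%) of 23. Prdx1, a peroxiredoxin, stood at -0.22, -0.21 and -0.12 with FL and at -0.78, -0.80 and -0.77 with DTA. Keap1, the inhibitor of NRF2, stood at 0.56, 0.54 and 0.61 with FL and at 1.13, 1.14 and 1.15 with DTA. The groups of both genes were apart, by 0.60 and -0.57. Of 34 targets of ATF4 and tRNA synthetases 9 were higher (26%) and 11 lower (32%). Of 17 genes of MHC class I presentation 6 were higher (35%) and 1 lower (5.9%), with B2m, the light chain, higher by 0.37.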
